A study of Mus musculus with 24 samples.

Results

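The effect of maternal undernutrition was examined in muscle cell cultures kept in a substrate-limited medium. The comparison used the 12 arrays of limited-medium cultures among the 24 arrays of the series, 6 from undernourished and 6 from control offspring, chosen by their labels alone. The cells were primary cells isolated from the quadriceps, a large thigh muscle, of ICR mice, an outbred laboratory stock. They were grown on Matrigel and differentiated at low serum, a step that lets mononuclear muscle precursors fuse into myotubes. RNA was measured on 1 expression array per sample, and every value below is a deposited log2 signal (RMA), so that a difference of 1 is a doubling.

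Dams of the undernourished group received 50% of the food of gestation-matched controls from day 12.5 of pregnancy until delivery. Control dams ate freely, all mothers ate freely after delivery, and litters of both groups were set to 8 pups. The restriction thus ended at birth, and the labels used here do not give the age or sex of the offspring. Limited cultures spent the night with 1% serum in a medium whose glucose was lowered to 0.5 mM, with 0.5 mM carnitine and 1 mM glutamine added; the labels leave unclear whether differentiation came before this step. The other 12 arrays come from standard differentiation medium with 2% serum and 5.5 mM glucose. Each array carries a number shared with 1 array of the other medium, called the culture number here. Whether that number names a mouse, a litter or a flask is not stated in the labels, so the p-values reflect sample-to-sample spread that may in part be technical. The undernourished cultures are numbered 1, 4, 8, 9, 12 and 20, and the control cultures 5, 10, 11, 15, 16 and 24.

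The arrays carried the RNA of differentiated muscle, and markers of other cells varied between cultures. Across the 15 myotube markers, such as Acta1, Ckm and Ttn, the mean level was 12.4 ± 0.09 in control and 12.3 ± 0.06 in undernourished arrays (log2 signal, SD, n = 6 each). The 12 satellite cell and myoblast markers averaged 7.55 ± 0.14 and 7.46 ± 0.11. The 11 fibroblast and fibro-adipogenic progenitor markers averaged 7.60 in control culture 16, against 6.10 to 6.49 in the other controls, and 7.35 in undernourished culture 20, against 5.84 to 6.07 in the rest of its group. The 8 Schwann and glial markers averaged 7.73 in culture 20, against 6.00 to 6.13 in the rest of its group. In the controls this mean was 6.67 in culture 16 and 6.63 in culture 24, against 6.04 to 6.16 in the other 4. In these bulk samples, fewer cells of a type and less RNA per cell cannot be told apart. Values without cultures 16 and 20 are given for some results only, and the part of these other cells in any difference was not tested.

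Cells that run short of amino acids, glucose or protein-folding capacity phosphorylate the translation factor eIF2α, which slows general translation and favours translation of the transcription factor ATF4. ATF4 and its partners then induce genes for amino acid import, asparagine, serine and cysteine synthesis, tRNA charging and the regulators CHOP (Ddit3), ATF3 and TRIB3. This integrated stress response is well known in muscle, where it can raise secretion of the hormone FGF21. ATF4 binds, as a dimer with C/EBP proteins, composite elements that hold the letters TGATGNAA.

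Because the members of this response stood higher in the undernourished cultures, the 250 bases before the RefSeq start sites of 4 of them are printed from the GRCm38.p6 promoter table, each on its gene's own strand. Capitals mark matches to TGATGNAA on either strand (read as TTNCATCA on the printed strand when the match lies on the other one).

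Slc7a11, chr3:50443614-50443863, minus strand: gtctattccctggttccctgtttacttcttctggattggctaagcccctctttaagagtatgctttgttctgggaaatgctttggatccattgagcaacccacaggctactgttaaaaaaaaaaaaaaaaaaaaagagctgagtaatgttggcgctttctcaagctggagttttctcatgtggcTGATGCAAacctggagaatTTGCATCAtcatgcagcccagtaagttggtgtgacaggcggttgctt

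Atf3, chr1:191183334-191183583, minus strand: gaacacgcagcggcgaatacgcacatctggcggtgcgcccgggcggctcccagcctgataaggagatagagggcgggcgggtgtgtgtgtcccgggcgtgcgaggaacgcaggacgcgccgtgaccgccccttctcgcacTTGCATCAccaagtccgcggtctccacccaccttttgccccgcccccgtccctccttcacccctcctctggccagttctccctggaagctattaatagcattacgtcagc

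Asns, chr6:7693210-7693459, minus strand: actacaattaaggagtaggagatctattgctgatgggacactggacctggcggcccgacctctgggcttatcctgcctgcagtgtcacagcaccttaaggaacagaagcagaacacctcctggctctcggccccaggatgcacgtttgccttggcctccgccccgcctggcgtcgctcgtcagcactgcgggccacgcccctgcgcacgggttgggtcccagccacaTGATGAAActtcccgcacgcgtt

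Fgf21, chr7:45615491-45615740, minus strand: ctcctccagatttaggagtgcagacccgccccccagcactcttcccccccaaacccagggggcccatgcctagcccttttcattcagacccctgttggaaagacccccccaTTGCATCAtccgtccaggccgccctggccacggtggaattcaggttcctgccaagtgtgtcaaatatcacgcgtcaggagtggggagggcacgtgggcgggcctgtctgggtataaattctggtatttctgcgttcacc

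Slc7a11 held 2 matches, with starts 66 and 47 bases before the RefSeq start site. The matches of Atf3, Asns and Fgf21 began 110, 23 and 139 bases before it. Of 34 measured response genes, 29 had a promoter in the table and 8 of these (27.6%) held the motif within the 250 bases: Asns, Atf3, Chac1, Fgf21, Gars, Nupr1, Slc7a11 and Vldlr. The motif was present in 578 of 16990 tested genes with a promoter (3.4%) and in 1134 of all 32851 windows of the same length (3.45%). A match describes the sequence only, and genes without a match may carry the element outside this window. The printed promoters all come from the 8 with a match. Since the list holds targets already assigned to this response, its higher share is no test of these cultures.

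No gene passed the test for maternal diet in limited medium. Among 22180 genes tested with limma's moderated test and Benjamini-Hochberg adjustment, 0 genes (0%) had an adjusted p under 0.05, and the lowest adjusted p was 0.418. At an unadjusted p under 0.05 there were 1318 genes (5.94%), of which 622 (2.8%) were higher and 696 (3.14%) lower in undernourished cultures. The 6 undernourished values did not overlap the 6 control values for 46 genes (0.207%), 25 higher (0.113%) and 21 lower (0.0947%). A difference of 1 or more in size was seen for 16 genes, 6 upward and 10 downward. The signed median over all genes was 0.002; it says nothing of the size of single differences and serves below as the background of list medians. For genes at or above the median level of 6.02, the median 95% interval was ± 0.23 for a single gene, without adjustment. Shifts within that width could not be resolved with 6 arrays a group. The adjusted test also left larger differences unresolved, such as 1.38 for Slc7a11. Without undernourished culture 20, 3 genes passed the adjusted threshold (Cdsn, Plk2 and Sytl2, all higher), and 2269 genes had an unadjusted p under 0.05. Without cultures 16 and 20, 6 genes passed, with Bgn, Igfbp7 and Plaat1 lower besides the same 3, and 2047 had an unadjusted p under 0.05. Cultures 16 and 20 stood out by marker levels in these same arrays, so these fits are no independent test. With culture 24 also left out, 1 gene passed, Cdsn.

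**Figure D1:**
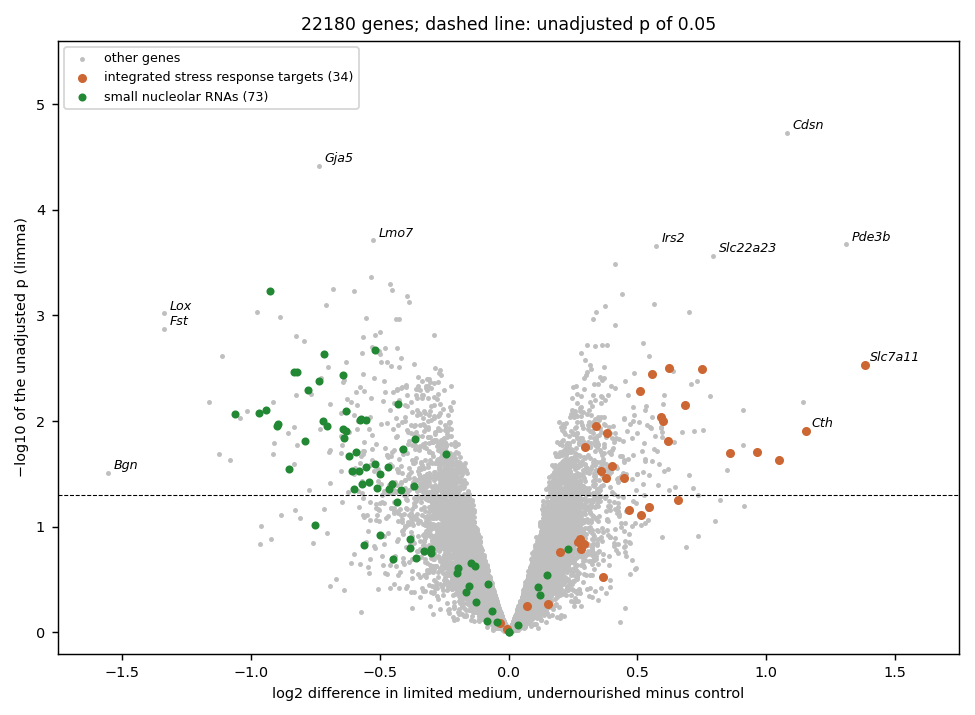
Difference and unadjusted p of the 22180 genes in limited medium. The x axis gives the log2 difference, undernourished minus control, and the y axis −log10 of the unadjusted limma p, with a dashed line at 0.05; orange points are the 34 integrated stress response targets and green points the 73 small nucleolar RNAs. Most orange points lie right of 0 and most green points left of it, and no gene had an adjusted p under 0.05.

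The genes with the smallest p are described next as candidates with their values, 12 in each direction; all 24 had an adjusted p (limma, Benjamini-Hochberg) of 0.418 to 0.817, so none counts as changed.

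The gene with the smallest p of all was Cdsn, which encodes corneodesmosin, an adhesion protein known from cornified epidermis. Its level in undernourished cultures 9, 8, 4, 20, 1 and 12 was 7.80, 7.08, 7.48, 6.46, 7.36 and 7.33. In control cultures 5, 24, 16, 15, 11 and 10 it was 6.08, 6.32, 6.09, 6.51, 5.95 and 6.07. Undernourished culture 20 lay within the control range and the other 5 lay above it. The difference was 1.08 ± 0.18 (SE), or 2.12-fold, with an adjusted p of 0.418. In standard medium the difference was -0.03 ± 0.20, and the test of the difference between media gave an unadjusted p of 0.00063 (adjusted p = 1.0, limma). Without culture 20 the limited-medium difference was 1.24 ± 0.13 with an adjusted p of 0.00226 (limma).

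Insulin and cyclic AMP signalling were represented by Irs2 and Pde3b among the higher candidates. Irs2, an adaptor of the insulin and IGF1 receptors, measured 7.26, 6.74, 6.94, 6.68, 7.06 and 6.90 in undernourished cultures 9, 8, 4, 20, 1 and 12. Control cultures 5, 24, 16, 15, 11 and 10 gave 6.59, 6.14, 6.20, 6.67, 6.21 and 6.33. The groups did not overlap, although the lowest undernourished and highest control values were close, and the difference was 0.57 ± 0.12. Pde3b, a phosphodiesterase through which insulin lowers cyclic AMP, ran from 5.93 to 7.90 (median 6.38) in undernourished and from 4.97 to 5.94 (median 5.14) in control cultures, a difference of 1.31 ± 0.27. Its values met at the edges, where undernourished culture 12 and control culture 15 lay side by side. Of the 21 measured genes of insulin and IGF signalling, Irs2 was the only one with an unadjusted p under 0.05; 16 were lower, the median was -0.10, and the lowest was Igf1r, the IGF1 receptor, at -0.27 ± 0.17.

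Genes of amino acid and one-carbon metabolism and their stress-induced regulators contributed 5 of the 12 higher candidates. Slc7a11, the cystine importer of system xc-, had the largest difference of the 24 genes. It measured 9.33, 7.96, 8.66, 7.74, 8.30 and 8.49 in undernourished cultures 9, 8, 4, 20, 1 and 12, and 7.35, 7.38, 6.43, 8.35, 5.37 and 7.30 in control cultures 5, 24, 16, 15, 11 and 10. Control culture 15 reached the undernourished levels and control culture 11 was far below all others. The difference was 1.38 ± 0.39, or 2.61-fold. Mthfd1l, which makes formate in mitochondria, ran from 7.25 to 8.13 (median 7.93) against 6.54 to 7.39 (median 7.17), a difference of 0.70 ± 0.17 with overlap at the edges. Wars2, the mitochondrial tryptophanyl-tRNA synthetase, differed by 0.34 ± 0.08, with 6.91 as its lowest undernourished and 6.83 as its highest control value. The stress-induced transcription factors were Atf3 and Atf5. Atf3 was 9.65, 8.74, 9.75, 9.20, 9.48 and 9.45 in the undernourished cultures and 8.82, 9.07, 8.19, 9.04, 7.84 and 8.81 in the controls, in the culture order used for Slc7a11. Undernourished culture 8 fell inside the control range and the other 5 lay above it, a difference of 0.75 ± 0.21. Atf5 ran from 9.54 to 10.43 (median 10.06) against 9.01 to 9.91 (median 9.35), a difference of 0.62 ± 0.18 with overlapping groups.

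The remaining higher candidates have other roles. Slc22a23, a member of the organic ion transporter family, ran from 8.44 to 9.40 against 7.64 to 8.28 in controls and differed by 0.79 ± 0.17 without overlap. Bbx, an HMG-box DNA-binding protein, did not overlap either, with a difference of 0.30 ± 0.08. Sytl2, a Rab27 effector in vesicle transport, differed by 0.52 ± 0.14; undernourished culture 20, at 9.82, was below every control and the other 5 were above every control. Without culture 20, Sytl2 differed by 0.66 ± 0.09 with an adjusted p of 0.0245 (limma). Adam9, a membrane-bound metalloprotease, differed by 0.32 ± 0.09 with overlap.

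Among the lower candidates, several encode junction, cytoskeleton and matrix proteins. Gja5, a connexin of gap junctions, had the smallest p in this direction. It measured 6.65, 6.75, 7.01, 7.19, 6.92 and 7.41 in undernourished cultures 9, 8, 4, 20, 1 and 12, and 7.89, 7.55, 7.54, 7.67, 8.02 and 7.68 in control cultures 5, 24, 16, 15, 11 and 10. The groups did not overlap, and the difference was -0.74 ± 0.13, with an adjusted p of 0.428 (limma). Lmo7, a LIM and PDZ domain protein of cell junctions and the nuclear envelope, ran from 9.15 to 9.72 against 9.85 to 10.25, a difference of -0.53 ± 0.11 without overlap. Pdlim4, an actin-associated PDZ and LIM domain protein, differed by -0.89 ± 0.22, also without overlap. Fras1, a basement membrane matrix protein, differed by -0.53 ± 0.12 and overlapped by undernourished culture 20 alone, at 7.10. Lox, lysyl oxidase, which crosslinks collagen and elastin, measured 6.33, 5.91, 6.02, 7.80, 6.80 and 7.24 in the undernourished cultures and 7.57, 8.87, 8.68, 7.90, 7.79 and 7.32 in the controls. Undernourished culture 20 lay among the controls, and the difference was -1.34 ± 0.33, or 2.53-fold lower. Lox is made by fibroblasts. Among controls it was highest in culture 24, where the fibroblast markers averaged 6.49, and next in culture 16, where they averaged 7.60. The controls other than culture 16 had marker means of 6.10 to 6.49. Without cultures 16 and 20 the Lox difference was -1.43 ± 0.29, and with culture 24 also left out it was -1.19 ± 0.24. The part of fibroblasts in this difference was not tested.

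Of the lipid enzymes, Mgll, monoglyceride lipase, and Agpat2, which makes phosphatidic acid, stood lower. Mgll ran from 6.71 to 6.95 (median 6.83) in undernourished and from 7.01 to 7.60 (median 7.30) in control cultures, without overlap, and differed by -0.46 ± 0.10. Agpat2 ran from 7.97 to 8.43 against 8.40 to 8.92, a difference of -0.44 ± 0.11 with a narrow overlap. Rps19, a protein of the small ribosomal subunit, ran from 9.38 to 9.91 against 9.98 to 10.16, a difference of -0.40 ± 0.09 without overlap. The last 4 lower candidates were Snx7, a sorting nexin of endosomal traffic (-0.68 ± 0.16), Mr1, an antigen-presenting molecule for microbial vitamin B metabolites (-0.60 ± 0.14), Pbx3, a homeodomain transcription factor (-0.55 ± 0.14), and Sipa1l2, a Rap GTPase-activating protein family member (-0.39 ± 0.09); each had overlapping groups.

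**Figure D2:**
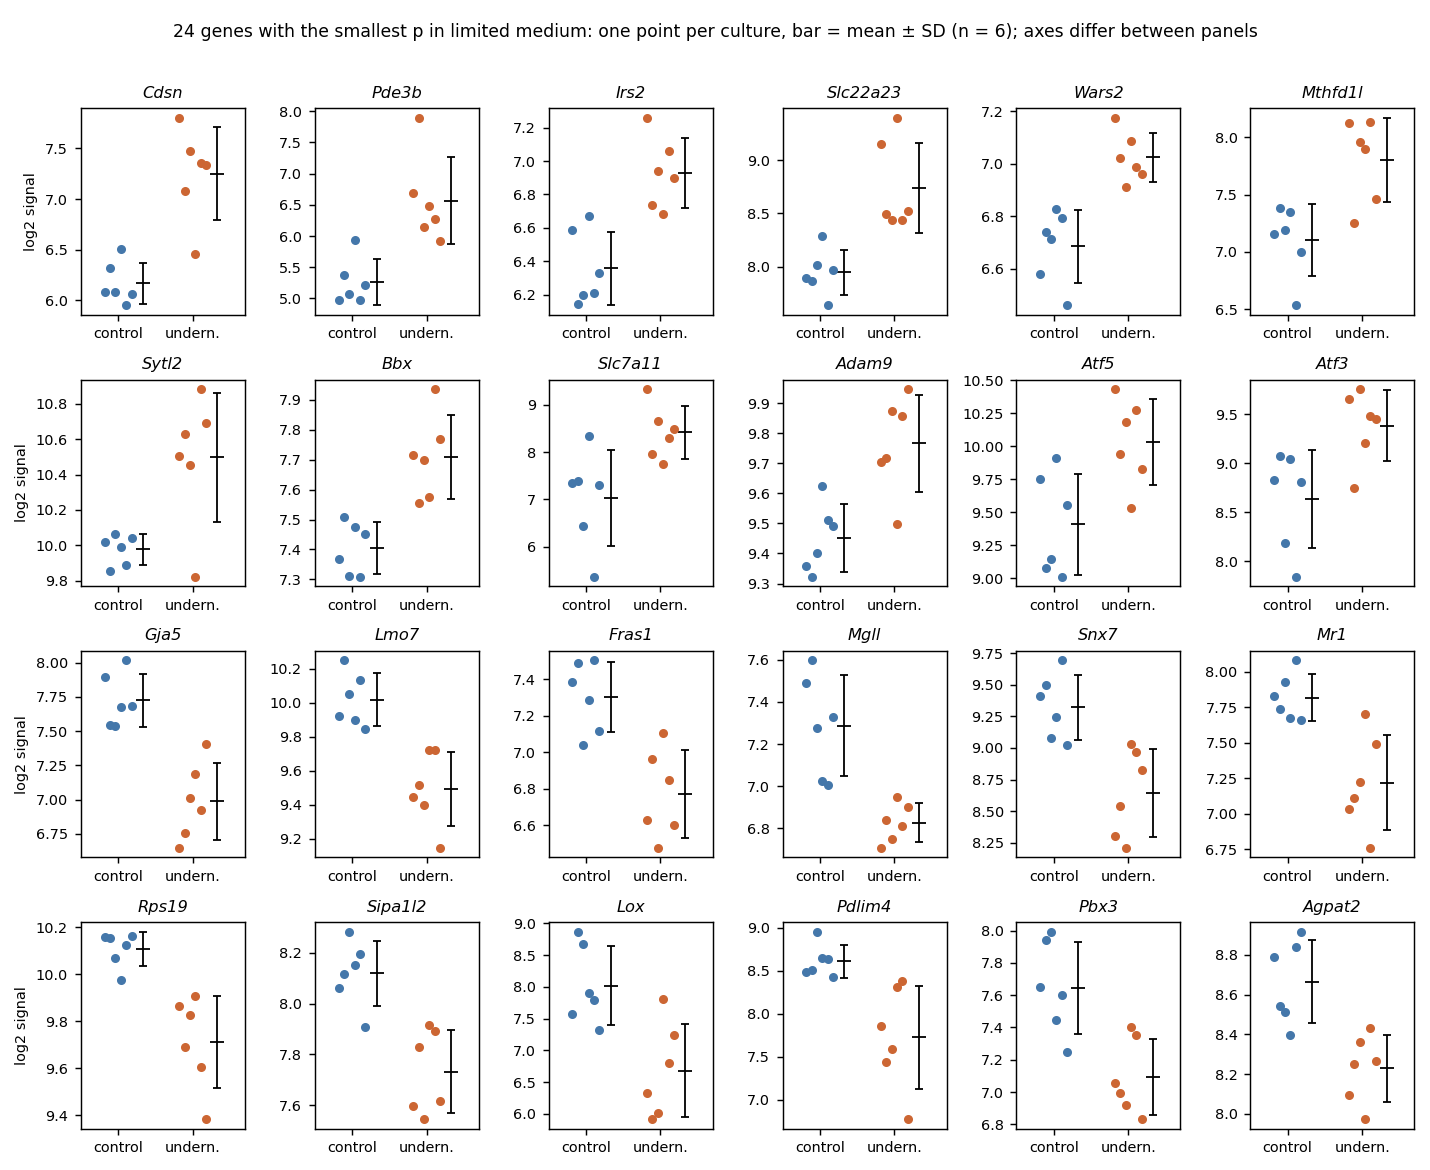
The 24 candidate genes in limited medium. Each panel shows the log2 signal of the 6 control (blue) and 6 undernourished (orange, "undern.") cultures with the mean and SD in black, on an axis of its own. Of the 24 genes, 9 had groups that did not overlap, 4 higher and 5 lower in undernourished cultures, against 0.207% of all genes. The genes were chosen by their p in these same arrays, which favours groups without overlap, and none passed the adjusted threshold.

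These 24 genes were chosen by their p in limited medium, and the standard-medium arrays carry the same culture numbers, so values from both media are given side by side only. In standard medium 0 of 24 had an unadjusted p under 0.05, where 2.61% of all genes did. Their groups all overlapped there, while 0.153% of all genes had no overlap, 0.0631% with the undernourished cultures higher and 0.0902% with them lower. Slc7a11 differed by 0.44 ± 0.48, Pde3b by 0.91 ± 0.48, Irs2 by 0.25 ± 0.16, Gja5 by -0.48 ± 0.36 and Lox by -0.75 ± 0.62 in standard medium. The difference between media had an unadjusted p under 0.05 for Cdsn, Snx7 and Sipa1l2 and an adjusted p under 0.05 for none of the 24. That was the limma interaction term over all 24 arrays without a replicate block, in which 2.9% of all genes had an unadjusted p under 0.05 and 0% an adjusted one. Since the genes were chosen on their limited-medium p, these counts do not show that the diet difference depends on the medium.

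The targets of the integrated stress response lay mostly higher in undernourished cultures in limited medium. Of 34 measured genes, 32 were higher, against 50.9% of all genes, and 20 had an unadjusted p under 0.05 in that direction, where the share of all genes was 2.8%. The lower direction had 0 such genes. The median difference was 0.46 against 0.002 over all genes, and 0 of the 34 passed the adjusted threshold. Transcripts of this response are induced together, so the members are not independent of each other. Like the other lists, this one was chosen with earlier results of these data known, so its counts are not an independent test.

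By role, the regulators came first. Atf4 itself, whose control is mostly translational, differed by 0.27 ± 0.17 and Ddit3, which encodes CHOP, by 0.37 ± 0.34, neither with an unadjusted p under 0.05. Trib3, a pseudokinase that restrains ATF4 and CHOP, ran from 8.33 to 10.04 (median 9.58) in undernourished and from 7.09 to 9.10 (median 8.80) in control cultures, a difference of 0.86 ± 0.33. Cebpg, a dimer partner of ATF4, differed by 0.60 ± 0.20. Among the enzymes, Cth, which makes cysteine from cystathionine, ran from 7.00 to 9.69 (median 8.71) against 5.94 to 7.93 (median 7.76), a difference of 1.15 ± 0.41. Asns, asparagine synthetase, differed by 0.45 ± 0.19, and Aldh18a1, the first enzyme of proline synthesis, by 0.69 ± 0.22. Of the serine and folate enzymes, Psat1 differed by 0.51 ± 0.16, Shmt2 by 0.56 ± 0.16 and Mthfd2 by 0.62 ± 0.23. The hormone Fgf21 ran from 10.24 to 12.14 (median 11.51) against 8.86 to 11.11 (median 10.77), a difference of 0.96 ± 0.37. The 2 genes below 0 were Stc2, stanniocalcin 2 (-0.03 ± 0.14), and Cbs, cystathionine beta-synthase (-0.01 ± 0.07).

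The groups overlapped for all 34 genes (0.207% of all genes did not overlap), and the list's mean showed which cultures lay at the edges. The mean over the 34 genes was 8.17 in control culture 11 and 9.16 in control culture 15, the lowest and highest of the controls. In the undernourished group it ran from 8.74 in culture 20 to 9.72 in culture 9. Without culture 20 the median difference was 0.58 and 26 genes had an unadjusted p under 0.05, without cultures 16 and 20 it was 0.57 with 26 genes, and over 25 alternative settings it stayed between 0.33 and 0.60. With the second number of the array titles, which has no stated meaning, as a covariate, 8 genes had an unadjusted p under 0.05 and the median was 0.37.

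In standard medium the same 34 genes had a median difference of 0.07, and 0 had an unadjusted p under 0.05, where 1.37% of all genes were higher and 1.24% lower at that threshold. The difference between media was above 0 for 32 of the 34, with a median of 0.38. In the interaction test without a replicate block, 0 genes had an unadjusted p under 0.05 (1.48% of all genes above 0 and 1.42% below 0 did). With the culture number as a random block or by differences within cultures, 2 of the 34 did so above 0, against 2.41% and 2.31% of all genes. None had an adjusted p under 0.05.

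**Figure D3:**
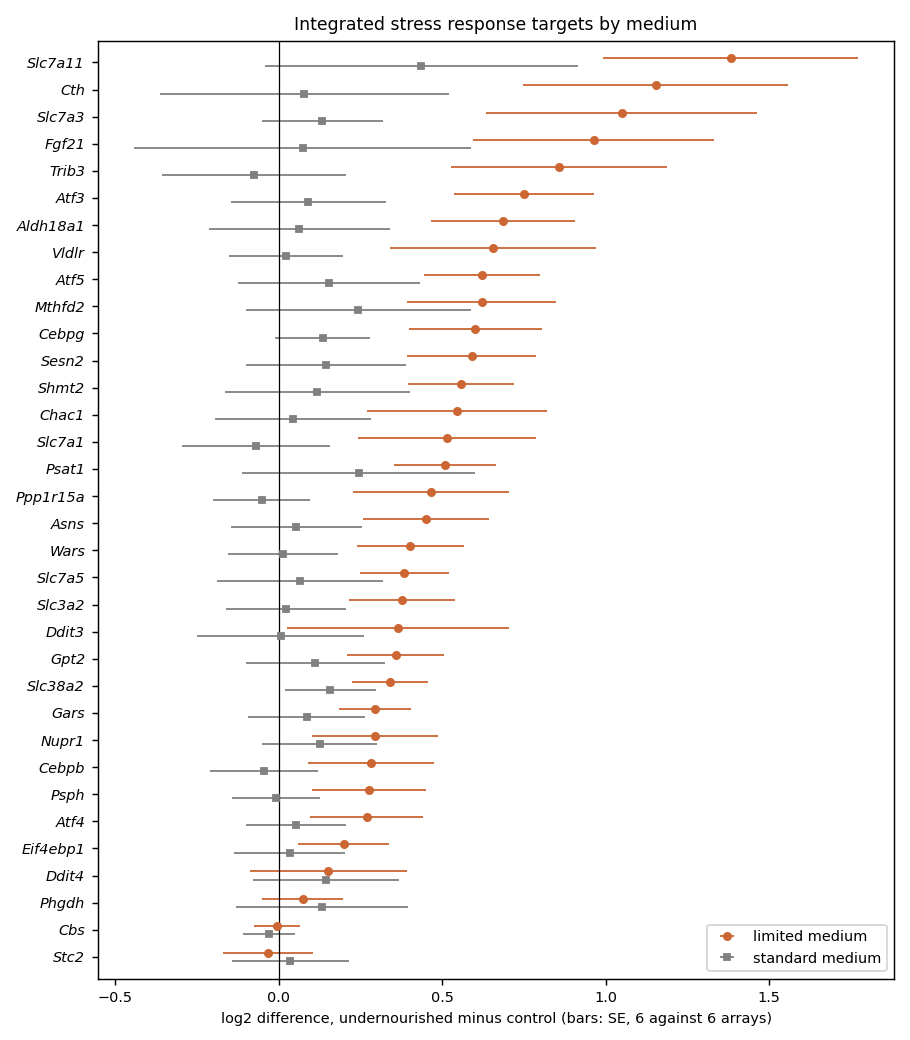
Diet difference of the 34 integrated stress response targets in both media. Points give the log2 difference, undernourished minus control, in limited (orange circles) and standard medium (grey squares), and bars its standard error over 6 against 6 arrays. Slc7a11, Cth and Slc7a3 lie above 1 in limited medium, 32 genes lie above 0 there, and the standard-medium points lie closer to 0 with a median of 0.07.

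Protein folding and degradation genes of the endoplasmic reticulum leaned the same way, with fewer genes past an unadjusted p of 0.05. At that threshold 2.8% of all genes were higher. Of 21 folding chaperones, 20 were higher with a median of 0.30. Only Ero1b, an oxidase for disulfide formation (0.72 ± 0.32), and Canx, the lectin chaperone calnexin (0.22 ± 0.10), had an unadjusted p under 0.05; the lowest was Sil1 at -0.004 ± 0.10. Without culture 20 the count was 16 and the median 0.47, without control culture 15 it was 8 and without undernourished culture 8 it was 10. Leaving out any of cultures 10, 11 and 16 (control) or 1, 4, 9 and 12 (undernourished) gave 0. Of 17 genes of ER-associated degradation, 16 were higher (median 0.20), and Derl1 and Edem3, which move and trim misfolded glycoproteins, had an unadjusted p under 0.05 at 0.33 ± 0.15 and 0.28 ± 0.13. The extremes were Derl3 at 0.91 ± 0.45 and Ube2j2 at -0.02 ± 0.13. Without culture 20 the median was 0.39 and the count 10, and without cultures 16 and 20 they were 0.37 and 9. The count was 0 when any of control cultures 10, 11, 16 and 24 or undernourished cultures 1, 4 and 9 was left out, with a median down to 0.13 without culture 4, and 1 without culture 12. It was also 0 with the title number as a covariate. Of 10 sensors and transcription factors of the unfolded protein response, 8 were higher (median 0.14) and 2 had an unadjusted p under 0.05, the sensor Ern1 at 0.27 ± 0.12 and Wfs1 at 0.23 ± 0.10; Mbtps1, a protease of the pathway, was lowest at -0.14 ± 0.11. Leaving out single cultures gave 0 to 4 such genes in this list. Of 12 cytosolic heat shock genes, 8 were higher (median 0.12); Hspa1a was highest at 0.82 ± 0.40 and Hspb1 lowest at -0.32 ± 0.22, and the co-chaperone Bag3 alone had an unadjusted p under 0.05, at 0.23 ± 0.08.

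Lists of amino acid transport and tRNA charging share members with the stress targets. Of 19 amino acid transporters, 11 were higher and 8 lower, near the 50.9% of all genes that were higher, and the median was 0.16. At an unadjusted p under 0.05, where 2.8% of all genes were higher, 7 of these transporters were higher and none was lower. They were Slc7a11, the arginine importer Slc7a3 (1.05 ± 0.42), the glutamine carrier Slc1a5 (0.58 ± 0.24), both chains of the leucine exchanger, Slc7a5 (0.38 ± 0.14) and Slc3a2 (0.38 ± 0.16), Slc38a2 (0.34 ± 0.12) and the lysosomal sensor Slc38a9 (0.22 ± 0.10). The lowest was the glutamate carrier Slc1a3 at -0.19 ± 0.09. The count of 7 was 3 without undernourished culture 4 or 9 and with the title number as a covariate, 4 without control culture 11 and 9 without culture 20. The median was 0.10 without culture 1. For this and the following lists, the background count of all genes higher at that threshold also moved. It was 622 in the main fit, 1217 without culture 20 and 437 with the title number. Of 9 genes of glutamine metabolism, 7 were higher (median 0.18), and Asns, Gpt2 (0.36 ± 0.15) and Got1 (0.28 ± 0.13) had an unadjusted p under 0.05; Gpt was lowest at -0.11 ± 0.15. That list had 0 such genes when any of control cultures 11 and 16 or undernourished cultures 4 and 12 was left out, 1 without undernourished culture 1 or 9, and 5 without culture 20. The cytosolic aminoacyl-tRNA synthetases, which charge tRNAs for translation, were listed after values had been seen; 14 of 17 were higher (median 0.28), and 7 had an unadjusted p under 0.05, from Mars1 at 0.28 ± 0.10 to Wars at 0.40 ± 0.16. Aimp1, a scaffold of the synthetase complex, was lowest at -0.13 ± 0.11. Without culture 20 the count was 12 and without cultures 16 and 20 it was 11. The count was 3 when any of cultures 11 (control), 1, 4, 9 and 12 (undernourished) was left out. It was 0 with the title number as a covariate and 2 in the fit over all 24 arrays in 4 groups. Their 16 mitochondrial counterparts had a median of 0.03 and only Wars2 with an unadjusted p under 0.05; Fars2 was lowest at -0.15 ± 0.11. Serine, one-carbon and proline synthesis, also listed afterwards, had 11 of 13 genes higher (median 0.28) and 6 with an unadjusted p under 0.05, led by Mthfd1l; Mthfd2l was lowest at -0.07 ± 0.09. Of 8 polyamine genes, 4 were higher (median 0.02), with Azin1, an antizyme inhibitor, at 0.18 ± 0.08 as the only one with an unadjusted p under 0.05, and with Sat1 (0.33 ± 0.21) and Smox (-0.29 ± 0.14) at the ends.

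The antioxidant genes under NRF2 had a median of 0.12 over 16 members. An unadjusted p under 0.05 was reached by 4 higher members, against 2.8% of all genes in that direction. They were Slc7a11, heme oxygenase Hmox1 (0.78 ± 0.24), the glutathione synthesis subunit Gclm (0.46 ± 0.18) and Osgin1 (0.41 ± 0.19), and Taldo1 was lowest at -0.19 ± 0.11. Without undernourished culture 9 the count was 2. Hmox1 ran from 8.47 to 10.41 (median 9.51) in undernourished and from 8.19 to 9.00 (median 8.75) in control cultures, with undernourished culture 8 inside the control range. The p53 targets were split evenly, 9 of 18 higher (median -0.01); Sesn2, a stress-induced inhibitor of mTORC1 and also an ATF4 target, and the kinase Plk2 had an unadjusted p under 0.05 at 0.59 ± 0.20 and 0.39 ± 0.18, and Phlda3 at -0.38 ± 0.13. Without culture 20, Plk2 differed by 0.59 ± 0.08 with an adjusted p of 0.0245 (limma). Of 17 hypoxia factor targets, 12 were higher (median 0.05), from Ero1a at 0.54 ± 0.27 to Adm at -0.33 ± 0.19, with Ndrg1 at 0.41 ± 0.15 and Pfkfb3 at -0.21 ± 0.08 the 2 with an unadjusted p under 0.05.

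Lists of fuel use centred near 0. Glycolysis and glucose uptake (21 genes) had a median of -0.01, running from the lactate carrier Slc16a1 at 0.36 ± 0.22 to Pfkfb3, the enzyme of the glycolytic activator fructose 2,6-bisphosphate, whose groups did not overlap. Glycogen metabolism (15 genes) had a median of 0.02 and 0 genes with an unadjusted p under 0.05, with Phka1 (0.30 ± 0.21) and Ppp1r3c (-0.19 ± 0.41) at the ends. The 6 genes of the list of glucose-responsive MondoA targets had a median of -0.04 and 0 such genes. They ran from Mlxip, which encodes MondoA itself, at 0.22 ± 0.12 to the target Txnip at -0.22 ± 0.16. Fatty acid oxidation and the carnitine shuttle (27 genes) had a median of -0.04; Acot2, a mitochondrial acyl-CoA thioesterase, was the exception. It ran from 11.36 to 13.07 (median 12.70) in undernourished and from 10.58 to 12.11 (median 11.85) in control cultures, a difference of 0.91 ± 0.30, while Cd36, the fatty acid carrier, was lowest at -0.40 ± 0.22. The tricarboxylic acid cycle and pyruvate dehydrogenase (27 genes) had a median of 0.01, with Pdha1 at 0.27 ± 0.12 and Idh2 at -0.25 ± 0.11 the only 2 with an unadjusted p under 0.05.

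The cholesterol and fatty acid synthesis lists had medians above 0 in both media, and the triglyceride list had medians below 0. At an unadjusted p under 0.05 in limited medium, 2.8% of all genes were higher and 3.14% lower. Of 19 cholesterol genes, 14 were higher in limited medium (median 0.14, against 0.24 in standard medium), and Sc5d (0.41 ± 0.12), Insig1 (0.40 ± 0.15), Hsd17b7 (0.33 ± 0.13) and Msmo1 (0.29 ± 0.10) had an unadjusted p under 0.05; Dhcr7 was lowest at -0.19 ± 0.16. Of 14 fatty acid synthesis genes, 13 were higher (median 0.08, against 0.13 in standard medium), led by the committing enzyme Acaca at 0.37 ± 0.13, with its regulator Srebf1 the exception at -0.24 ± 0.12. Of 17 genes of triglyceride synthesis and lipolysis, 11 were lower (median -0.12, against -0.03 in standard medium), Mgll and Agpat2 being the only ones with an unadjusted p under 0.05; Hilpda was highest at 0.14 ± 0.09.

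Respiratory chain, ribosome and proteasome subunits sat slightly lower in undernourished cultures. Of 33 complex I genes, 30 were lower with a median of -0.10, from Ndufs1 at 0.12 ± 0.11 to Ndufa11 at -0.28 ± 0.14, and Ndufa7 (-0.26 ± 0.11) and Ndufa13 (-0.21 ± 0.10) had an unadjusted p under 0.05, where 3.14% of all genes did so in this direction. Leaving out control culture 15 gave 11 such genes and undernourished culture 4 gave 6. The count was 0 when any of control cultures 10, 11 and 24 or undernourished culture 1 was left out and with the title number as a covariate, 1 when control culture 5 or one of undernourished cultures 8 and 9 was, and the median was -0.06 without culture 10. Of 36 subunits of complexes III to V, 26 were lower (median -0.08), and 5 had an unadjusted p under 0.05, among them the ATP synthase subunits Atp5e (-0.43 ± 0.12), Atp5k (-0.31 ± 0.11) and Atp5l (-0.20 ± 0.09); Cox6a2 was highest at 0.26 ± 0.14. Leaving out any of control cultures 10 and 11 or undernourished cultures 1 and 8 gave 3. Of 24 proteasome subunits, 22 were lower (median -0.13), and 5 had an unadjusted p under 0.05, with Psma7 lowest at -0.32 ± 0.11 and Psma5 highest at 0.06 ± 0.17; the count was 3 when any of control cultures 10, 11 and 16 or undernourished cultures 1, 8 and 12 was left out. The ribosomal protein lists were made after values had been seen: 49 of 58 cytosolic ones were lower (median -0.10, 8 with an unadjusted p under 0.05, from Rps15 at 0.34 ± 0.22 to Rps19), and 59 of 71 mitochondrial ones (median -0.09, 5 with an unadjusted p under 0.05, from Mrps9 at 0.11 ± 0.10 to Mrps24 at -0.25 ± 0.10). For the cytosolic list, 13 genes had such a p when control culture 15 was left out, 4 or 5 when any of the other controls was, 5 without undernourished culture 8 and 2 without undernourished culture 1. The mitochondrial list had 16 without control culture 15, 2 when any of control cultures 10, 11 and 16 or undernourished culture 1 was left out, and 3 without undernourished culture 8. With the title number as a covariate the cytosolic list had 7 and the mitochondrial list 0. In the fit over all 24 arrays in 4 groups they had 2 and 3. Ribosome biogenesis factors leaned upward, 17 of 21 with a median of 0.09 and 0 with an unadjusted p under 0.05, from Myc at 0.43 ± 0.21 to Nhp2 at -0.09 ± 0.09. With single cultures left out, 0 to 7 of them were higher at that threshold. Over all genes, 1318 had an unadjusted p under 0.05 in either direction in the main fit. That count was 1883 without control culture 15, 1185 without undernourished culture 4 and 910 with the title number.

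Regulators of mitochondria and energy sensing lay near 0. Mitochondrial biogenesis and dynamics (18 genes) had a median of 0.04, from Tfam at 0.17 ± 0.13 to Ppargc1b at -0.22 ± 0.12. AMPK and energy sensing (12 genes) had -0.02, from Prkab2 at 0.22 ± 0.11 to Prkag2 at -0.20 ± 0.13. Sirtuins and NAD salvage (14 genes) had 0.01, from Sirt1 at 0.17 ± 0.12 to Nmrk2 at -0.27 ± 0.18, and none of these 3 lists had a gene with an unadjusted p under 0.05. Autophagy and lysosome genes (21) had a median of 0.003, with the cargo receptor Sqstm1 at 0.28 ± 0.12 and the lysosome regulator Tfeb at -0.27 ± 0.08 both past an unadjusted p of 0.05 in opposite directions. FOXO targets and muscle atrophy genes (20) had a median of 0.05 and 0 such genes, from the growth inhibitor Mstn at 0.80 ± 0.44 to Sesn1 at -0.27 ± 0.18.

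The lists of muscle differentiation had medians near 0, with larger differences for single genes. The contractile apparatus (38 genes) had a median of -0.04, with Tpm3, a slow-fibre tropomyosin, at 0.57 ± 0.20 and Tnni2, fast troponin I, at -0.37 ± 0.16 the 2 with an unadjusted p under 0.05; Myot was lowest at -0.48 ± 0.42. Excitation-contraction coupling (18 genes) had a median of -0.01 and 0 such genes, from Clcn1 at 0.16 ± 0.13 to Sln at -0.92 ± 0.58. Acetylcholine receptor and neuromuscular junction genes (12) had 0.09, with the embryonic receptor subunit Chrng at 0.33 ± 0.15 past an unadjusted p of 0.05 and Rapsn lowest at -0.24 ± 0.12. Myogenic regulators and fusion genes (19) had -0.02, with Mstn, myostatin, highest at 0.80. In that list Fst, follistatin, which binds and blocks myostatin and activin, ran from 7.56 to 9.89 (median 9.28) in undernourished and from 9.71 to 11.14 (median 10.39) in control cultures. Its difference was -1.34 ± 0.34, the groups overlapped through undernourished culture 12, and in standard medium it was -0.32 ± 0.48; Jam2 had an unadjusted p under 0.05 at -0.40 ± 0.14. Fst is not among the 12 lower candidates, which all had smaller p.

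Matrix genes and their regulators leaned lower. At an unadjusted p under 0.05, 3.14% of all genes were lower. Of 21 collagens and matrix genes, 19 were lower (median -0.18), and Lox, Fn1 and Loxl1 (-0.38 ± 0.16) had an unadjusted p under 0.05; Col5a2 was highest at 0.05 ± 0.30. Fibronectin, Fn1, ran from 8.88 to 11.99 (median 9.45) in undernourished and from 10.06 to 11.56 (median 11.10) in control cultures, a difference of -1.12 ± 0.43, with culture 20 the highest of all 12. The mean of the matrix list was 9.00 in culture 20 and 6.96 to 7.25 in the other undernourished cultures. Without culture 20 the list's median was -0.40 and 8 genes had an unadjusted p under 0.05, and without cultures 16 and 20 they were -0.32 and 8. Without control culture 16 the median was -0.03, with 3 genes lower at that threshold. With the mean of the fibroblast and Schwann markers as a covariate it was -0.03, with 4 genes lower. Of 23 TGF-beta and BMP genes, 15 were lower (median -0.08); Tgfb1, the main profibrotic ligand, differed by -0.83 ± 0.26, its receptor Tgfbr1 by 0.26 ± 0.12 and the inhibitor Smad7 by 0.26 ± 0.12. Of 25 Notch and Wnt genes, 21 were lower (median -0.13), and the ligands Wnt9a (-0.53 ± 0.21), Dll1 (-0.35 ± 0.13) and Jag2 (-0.23 ± 0.10) and the target Axin2 (-0.33 ± 0.14) had an unadjusted p under 0.05; Fzd4 was highest at 0.19 ± 0.12. The count of 4 was 1 without undernourished culture 9 (median -0.07) or control culture 11, 2 when any of control cultures 10 and 24 or undernourished culture 4 was left out, 1 with the title number as a covariate, and 6 without control culture 15; without culture 20 it was 6 with a median of -0.21. Of 7 IGF binding proteins, 5 were lower (median -0.11), from Igfbp5 at 0.23 ± 0.22 to Igfbp7 at -0.97 ± 0.63, with Igfbp6 at -0.45 ± 0.21 past an unadjusted p of 0.05. Igfbp7 was 10.78 in culture 20 and 6.25 to 6.87 in the other undernourished cultures. Without cultures 16 and 20 it differed by -1.47 ± 0.22 with an adjusted p of 0.0466 (limma). That fit leaves out the highest undernourished value, so its p is no independent test. With culture 24 also left out, Igfbp7 did not pass the adjusted threshold.

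**Figure D4:**
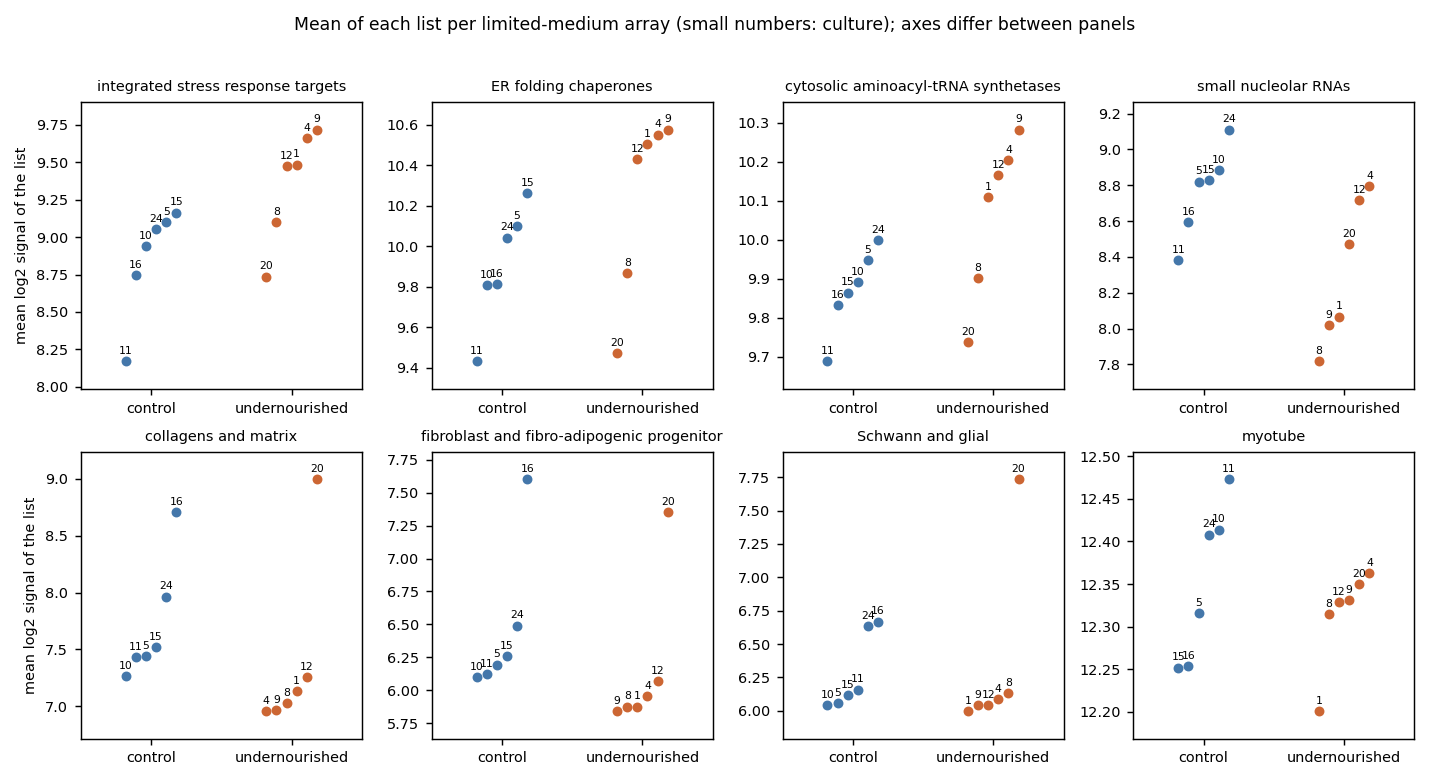
Mean log2 signal of 8 gene lists in each limited-medium array. Each point is an array, labelled with its culture number and ordered by value within control (blue) and undernourished (orange), on a separate axis per panel. Undernourished culture 20 is the lowest of its group for the stress targets (8.74) and the highest for the matrix (9.00), fibroblast (7.35) and Schwann (7.73) lists.

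Secreted, inflammatory and growth genes gave isolated differences. Myokines and secreted factors (17 genes) had a median of -0.07, from Fgf21 to Fstl1 at -0.72 ± 0.36, with Il15 at -0.54 ± 0.24 past an unadjusted p of 0.05. Inflammation and cytokine genes (19) had 0.01; the prostaglandin synthase Ptgs2 ran from 7.79 to 10.11 (median 9.46) in undernourished and from 7.37 to 9.19 (median 8.20) in control cultures, a difference of 1.14 ± 0.36 with overlapping groups. Interferon response and antigen presentation (20 genes) had 0.02 and 0 genes with an unadjusted p under 0.05, from Ifit2 at 0.28 ± 0.20 to Ifit3 at -0.12 ± 0.13. Immediate early and serum response genes (20) had -0.07, from Dusp6 at 0.32 ± 0.29 to Egr2 at -0.49 ± 0.15, with 2 genes past an unadjusted p of 0.05 in each direction. Cell cycle and DNA replication genes (24) had -0.01 in limited and 0.23 in standard medium, from Ccnd2 at 0.25 ± 0.29 to Rrm2 at -0.37 ± 0.28. Circadian clock genes (17) had 0.06, from Ciart at 0.31 ± 0.18 to Bhlhe40 at -0.42 ± 0.18; Bhlhe41 (-0.38 ± 0.12) and Clock (0.22 ± 0.10) also had an unadjusted p under 0.05.

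Genes often examined after prenatal undernutrition differed little. The 30 imprinted genes, expressed from 1 parental allele and known for roles in fetal growth, had a median of -0.03 and 0 genes with an unadjusted p under 0.05, from Ndn at 0.42 ± 0.30 to Dcn at -0.69 ± 0.73. Dcn is also a fibroblast marker and was 9.06 in control culture 16 and 7.53 in undernourished culture 20, against at most 5.05 elsewhere. The 16 DNA methylation enzymes and deacetylases had a median of -0.04, with Hdac4 at 0.25 ± 0.11 and Hdac5 at -0.28 ± 0.10, both class IIa deacetylases of muscle, past an unadjusted p of 0.05 in opposite directions.

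In the main fit, no marker list of another cell type had more than 1 gene with an unadjusted p under 0.05. All 11 fibroblast and fibro-adipogenic progenitor markers were lower (median -0.22, Cd34 at -0.01 ± 0.09 to Dcn), with 0 such genes. Their median was -0.33 without culture 20 and -0.24 without cultures 16 and 20. Over 25 alternative settings, up to 4 of these markers were lower at an unadjusted p under 0.05. Medians were -0.02 for myotube (Ttn 0.07 ± 0.14, Mb -0.19 ± 0.15), -0.17 for satellite cell and myoblast (Sdc4 0.22 ± 0.13, Cxcr4 -0.30 ± 0.22) and -0.03 for the 7 tenocyte markers (Mkx 0.09 ± 0.20, Scx -0.39 ± 0.14), of which Scx had an unadjusted p under 0.05. They were 0.04 for 9 endothelial markers (Emcn 0.18 ± 0.09, Pecam1 -0.11 ± 0.10), 0.07 for 10 leukocyte markers (Cd68 0.32 ± 0.16, Cd14 -0.18 ± 0.10) and -0.05 for 10 smooth muscle and pericyte markers (Rgs5 0.22 ± 0.11, Tagln -0.20 ± 0.21). They were 0.07 for 7 adipocyte markers (Fabp4 0.18 ± 0.12, Lep 0.04 ± 0.12), 0.05 for the Schwann and glial markers (Sox10 0.24 ± 0.35, S100b -0.14 ± 0.11) and 0.15 for 4 sex-linked genes (Xist 0.19 ± 0.19, Kdm5d -0.01 ± 0.10). The Schwann and glial median changed sign, to -0.155 without culture 20 and -0.099 without cultures 16 and 20. Up to 3 of these markers were higher at an unadjusted p under 0.05 over the 25 settings. Array means of the endothelial, leukocyte and adipocyte markers stayed between 4.80 and 5.53 in all 12 cultures, below the median level of all genes.

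Small noncoding RNAs of the nucleolus were lower in undernourished cultures; this list was made after values had been seen. Small nucleolar RNAs guide chemical modification of ribosomal and spliceosomal RNA and are mostly processed from introns of host genes. Of 73 measured, 66 were lower, 44 had an unadjusted p under 0.05 in that direction (3.14% of all genes did) and 0 passed the adjusted threshold; the median difference was -0.50. The extremes were Snora15 at -1.06 ± 0.35 and Snora2b at 0.23 ± 0.16. With single cultures left out the count lay between 28 and 49, with 28 without undernourished culture 8 and 29 without 9, and the median between -0.58 and -0.39. With the title number as a covariate the count was 25, and in the fit over all 24 arrays in 4 groups it was 27. Snora15 ran from 7.32 to 9.78 (median 8.91) in undernourished and from 9.02 to 10.41 (median 9.84) in control cultures. The mean over the 73 ran from 7.82 to 8.80 in undernourished and from 8.38 to 9.11 in control cultures, so the groups overlapped. In standard medium the median was -0.31 with 3 genes past an unadjusted p of 0.05 in the lower direction. All 5 small Cajal body RNAs were lower (median -0.31), from Scarna17 at -0.16 ± 0.12 to Scarna6 at -0.98 ± 0.24, 4 of them with an unadjusted p under 0.05, and 2 when control culture 24 or undernourished culture 8 was left out. The 478 microRNA hairpins had a median of -0.001, from Mir1970 at 0.56 ± 0.19 to Mir101c at -0.69 ± 0.31. At an unadjusted p under 0.05, 9 (1.88%) were higher and 13 (2.72%) lower, below the 2.8% and 3.14% of all genes. Without control culture 15, 21 were higher, and without undernourished culture 9, 7 were lower. Over all genes, 839 were higher at that threshold without culture 15, against 622 in the main fit.

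**Figure D5:**
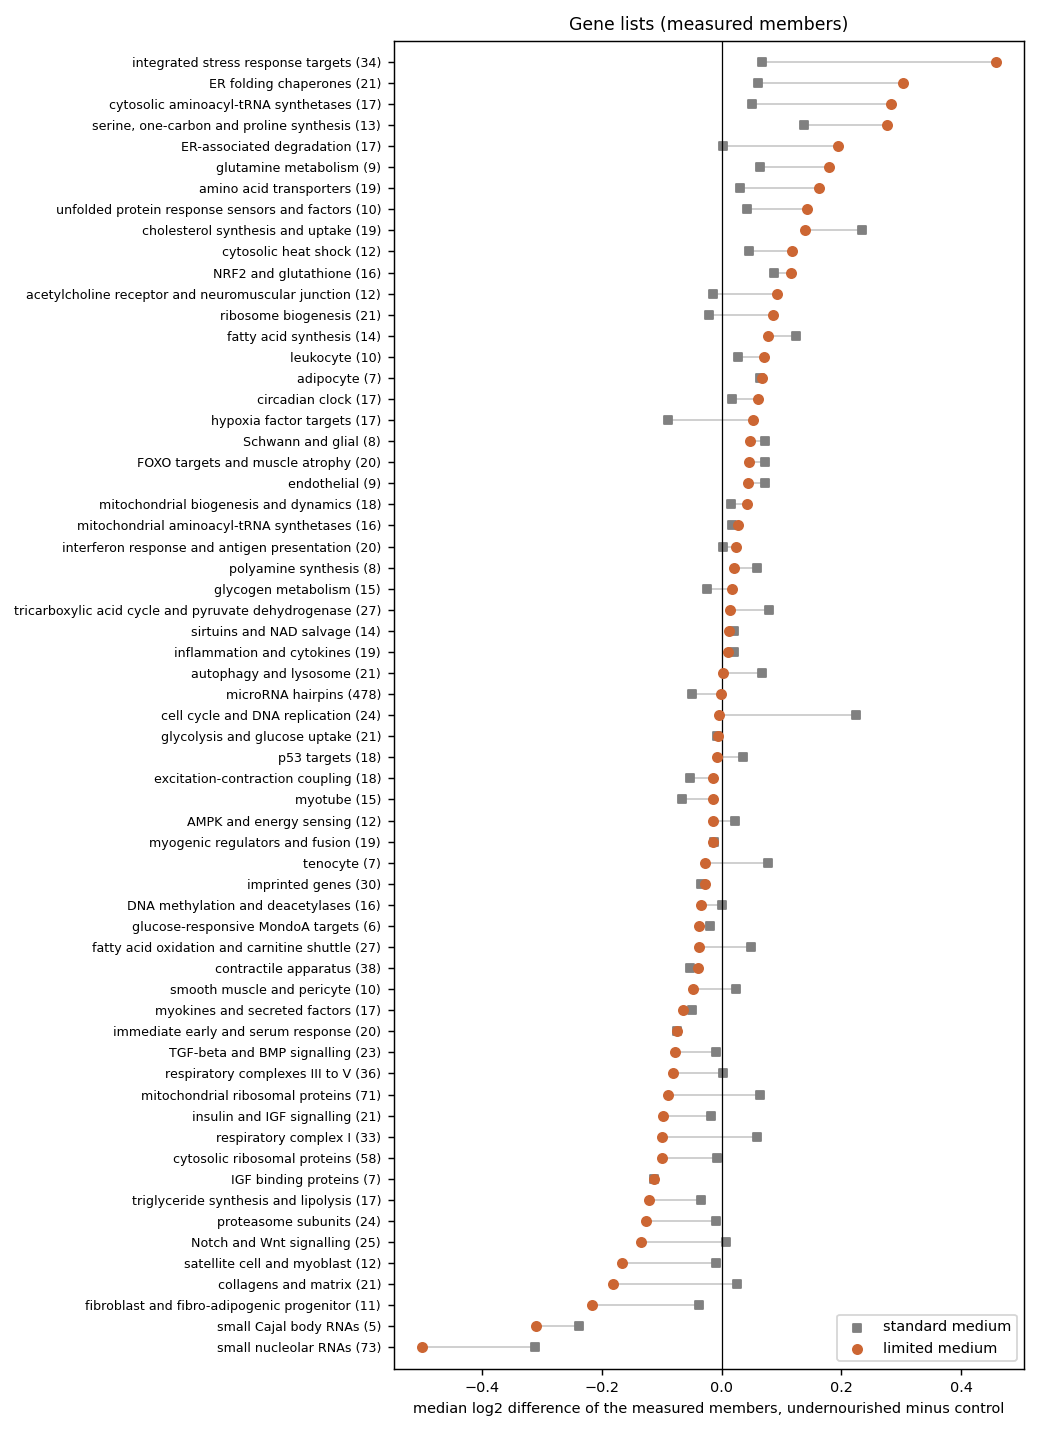
Median diet difference of each gene list with at least 5 measured members. The x axis gives the median log2 difference of a list's members, undernourished minus control, in limited (orange circles) and standard medium (grey squares), with the number of measured members in brackets. The stress targets have the highest limited-medium median (0.46) and the small nucleolar RNAs the lowest (-0.50).

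Across the 55 lists other than the 8 added families, 28 medians were above 0 and 27 below, and 38 were within 0.1 of 0. In these lists, 55 of 904 distinct genes were higher and 38 lower at an unadjusted p under 0.05, against 2.8% and 3.14% of all genes, and 19 lists had no such gene. The same contrast in standard medium gave 0 genes with an adjusted p under 0.05 and 578 (2.61%) with an unadjusted p under 0.05. The standard-medium arrays carry the same culture numbers, so the 2 contrasts are not independent.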

How the data were processed

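Per the labels' protocols, Trizol-extracted total RNA received biotin through the WT PLUS kit. The deposited values were made with RMA in Affymetrix Expression Console, per the submitters' processing notes, and were read as log2 signal from their range of 1.69 to 14.1; not given in the sources used here are the logarithm's base, tool versions and the genome build. Quantile normalization within RMA sets arrays to like distributions, so differences are relative to the other genes of an array. The deposited table holds 41345 transcript clusters, of which 23521 carried exactly 1 symbol in the platform annotation (1814 carried several and 16010 are unnamed here); symbols were updated through RefSeq for 23328. The cluster with the highest mean over the 24 arrays was kept per gene, leaving 22180 genes, with no filter on dim genes.

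The 12 limited-medium arrays were fitted with limma 3.58.1 in R 4.3.3 (lmFit and eBayes, undernourished against control, two-sided). The Benjamini-Hochberg adjustment covered all 22180 genes, with a threshold of 0.05. Errors of differences are standard errors, and errors of levels are SD over 6 arrays, whose number limits the precision. The standard-medium arrays were fitted the same way, and the difference between media as an interaction term over 24 arrays without a replicate block. The procedure was tested on simulated data. Culture numbers shared by the media were checked for pairing by correlating the deviations of same-numbered arrays. The r ran from -0.05 to 0.56, and the numbers were not treated as pairs in the main fit.

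The comparison, the gene lists and the naming rule were chosen with earlier results of these data known. Genes were named by the smallest p in each direction, 12 each, if their higher group's mean was at or above 6.02, the median level; called genes would have come first by size. Predicted symbols (2 higher) and small RNAs (3 lower) with p as small were left out. Each list's highest and lowest members are given as values, and other list members and genes outside the rule were chosen after their values were seen. Of 56 lists, the erythroid one had no measured member; 8 further families were listed after values were seen. Promoters are from RefSeq (GRCm38.p6), matched by symbol. Alternatives varied normalization, filters, weights, covariates, clusters, replicate block and cultures left out; leaving out cultures 16, 24 and 20 was added after seeing the data.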

Additional observations from a re-analysis of the deposited data

Results flagged for a closer look

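The means of the gene lists and the levels of the 24 named genes were checked for an array whose gap to the nearest of the other 5 arrays of its group exceeded Dixon's 95% limit for 6 samples. For the lists, 12 arrays stood out in 126 groups of 6, where chance gives about 1 in 20 groups. For the named genes, 0 did in 48 groups. Those genes were chosen by small p in these arrays, which disfavours a lone outlying array, so that rate is no measure for them.

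Undernourished culture 20 accounted for 5 of the 12. It was the highest of its group for the IGF binding proteins (8.5, others 7.25 to 7.66), collagens and matrix (9.0, others 6.96 to 7.25), fibroblast and fibro-adipogenic progenitor markers (7.35, others 5.84 to 6.07), smooth muscle and pericyte markers (7.56, others 6.70 to 6.91) and Schwann and glial markers (7.73, others 6.00 to 6.13).

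Control culture 16 accounted for 4. It was the highest control for fibroblast markers (7.6, others 6.10 to 6.49), inflammation and cytokines (6.21, others 5.94 to 6.03) and cell cycle and DNA replication (7.09, others 6.75 to 6.82), and the lowest for insulin and IGF signalling (8.2, others 8.31 to 8.36).

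The other 3 came from separate cultures. Control culture 11 was lowest for serine, one-carbon and proline synthesis (7.69, others 8.01 to 8.19). Control culture 15 was lowest for the cytosolic ribosomal proteins (9.18, others 9.36 to 9.43). Undernourished culture 1 was lowest for the myotube markers (12.2, others 12.31 to 12.36).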

How the results depend on the processing

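The count of genes with an adjusted p under 0.05 in limited medium (limma, 0 of 22180 genes) was 1 with array weights, 6 without cultures 16 and 20, and 1 without cultures 16, 24 and 20, a choice made after seeing the data; leaving out each culture in turn gave 0 to 3, above 0 only without undernourished culture 20. It was 0 under each other alternative run, an adjusted threshold of 0.1 included. The count at an unadjusted p under 0.05 (1318) was 768 when only the brighter 50% of genes (median level or higher) were tested, 2131 with array weights, 2361 over all transcript clusters and 2047 without cultures 16 and 20, and 944 to 2269 when single cultures were left out. Counts of list members under an alternative are to be read beside these counts over all genes. In standard medium the unadjusted count (578) was 191 with the brighter genes alone and 450 to 813 with single cultures left out, and the adjusted count was 0 throughout. The difference between media gave an unadjusted count of 643, which was 205 with the brighter genes alone and 493 to 792 with single cultures left out, with an adjusted count of 0 throughout. Fewer genes enter under the level filter and more features under all clusters; the cause of the other shifts was not tested.

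Same-numbered arrays of the media were not treated as pairs in the main fit, where r was under 0.1 for undernourished cultures 9 and 12. Since 10 of 12 arrays correlated best with their own number, that fit leaves out a pairing that most cultures show. Fits with a replicate block are therefore given beside it. With the culture number as a replicate block, the difference between media had 1089 genes with an unadjusted p under 0.05 as a random block and 1147 by differences within cultures, with 0 at an adjusted p under 0.05 in both. Of the 34 stress targets, 2 had an unadjusted p under 0.05 above 0 with either block (2.41% and 2.31% of all genes did) and 0 an adjusted one, against 0 without a block. With the random block, the limited-medium contrast over 24 arrays gave 1206 genes at an unadjusted p under 0.05 and 0 adjusted.

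Of the 24 named genes, Cdsn had an adjusted p under 0.05 (limma) with array weights (1.21, adjusted p = 0.0306), without cultures 16 and 20 (1.22, adjusted p = 0.0103), without 16, 24 and 20 (1.26, adjusted p = 0.0375) and without 20 (1.24, adjusted p = 0.00226), and Sytl2 without 16 and 20 (0.68, adjusted p = 0.0429) and without 20 (0.66, adjusted p = 0.0245). No named gene reversed its direction in any alternative run. The genes were chosen by small p in the same arrays that these runs refit, so a reversal was unlikely from the start. List medians moved beyond the spread between arrays in 5 of 1574 combinations of list and alternative, all in small lists or under the level filter. Signal over background was not judged, since no detection calls were used.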

Other observations

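Some genes outside the lists and candidates differed by 1 or more on the log2 scale in limited medium; they were chosen after their values were seen, and none passed the adjusted threshold (limma). Matrix proteoglycans and a matrix protease were lower in undernourished cultures: Bgn, biglycan, differed by -1.56 ± 0.65 (SE), Vcan, versican, by -1.04 ± 0.35 and the membrane protease Mmp14 by -1.08 ± 0.43. Their levels varied widely between cultures, with Bgn at 10.6 ± 1.02 in control and 9.08 ± 1.67 in undernourished arrays (SD, n = 6 each). Without cultures 16 and 20, Bgn differed by -1.86 ± 0.28 with an adjusted p of 0.0468 (limma). Gjd4, a connexin of developing muscle, was 7.30 ± 0.42 in control and 6.19 ± 0.79 in undernourished arrays, a difference of -1.11 ± 0.31 beside that of the other connexin described, Gja5. Anxa8, a calcium-dependent membrane-binding annexin, differed by -1.16 ± 0.37 in limited and by -0.07 ± 0.50 in standard medium. Rny3, a small cytoplasmic Y RNA that binds the Ro protein, differed by -1.02 ± 0.33, in the direction of most small nucleolar RNAs. Plaat1, a phospholipid-modifying acyltransferase, differed by -0.52 ± 0.13, and without cultures 16 and 20 by -0.70 ± 0.10 with an adjusted p of 0.0429 (limma).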
